A study of Homo sapiens with 8 samples.

Results

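The 10 genes described here are the inhibitor of DNA binding genes ID1, ID2, ID3 and ID4, the bone morphogenetic protein (BMP) ligand genes BMP2, BMP4 and BMP7, and the feedback inhibitor genes SMAD6, SMAD7 and BAMBI. They were taken by symbol from a table of 18164 genes, and all 10 were found. The table holds RNA sequencing of 8 tumors of HCC1937, an established human triple-negative breast cancer cell line. The tumors were grown from 1000000 cells in the inguinal mammary fat pad of NCG mice, a severely immunodeficient strain. All host mice shared this genotype. The mice entered treatment once tumors measured 100 to 150 mm3, and 4 tumors came from mice given nicotinamide mononucleotide (NMN, a precursor of NAD+, 500 mg/kg/day) and 4 from mice given vehicle. Tumors are numbered within their group (NMN 1, Vehicle 1 and so on). The labels used here do not say that every tumor came from its own mouse, so the p-values reflect only how these samples scatter, which may be technical. The tumors derive from 1 cell line.

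BMP ligands bind pairs of type I and type II serine/threonine kinase receptors, which phosphorylate SMAD1, SMAD5 and SMAD9. These enter the nucleus with SMAD4 and switch on genes such as the ID genes, and the pathway also induces its own brakes. SMAD6 and SMAD7 block the receptors and their SMAD substrates inside the cell, and BAMBI is a pseudoreceptor without a kinase domain. ID proteins have a helix-loop-helix but no DNA-binding region, so they hold E proteins such as TCF3 and TCF12 away from DNA, and in breast epithelium they are known for their part in self-renewal, differentiation and spread.

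None of the 10 genes differed between NMN and Vehicle tumors by the test used, although 9 of them were higher on average in the NMN group. The pattern that most of them shared was a low level in a single tumor of the control group, Vehicle 4, which had the lowest value of the 8 tumors in 7 of the 10 genes, among them all 4 ID genes. ID1 was by far the most abundant member in every tumor.

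The promoters of 3 members are shown. ID1 is the most abundant member, and ID4 has the largest log2 fold change of the ID genes over all 8 tumors. SMAD6 is the only member with a palindromic SMAD element in the bases searched, which leave out BMP2 and BMP7. The sequences are the 250 bases before the RefSeq transcription start on GRCh38.p14, written 5′ to 3′ along the gene: ID1 at chr20:31605039-31605288 (plus strand), ID4 at chr6:19837120-19837369 (plus strand) and SMAD6 at chr15:66701986-66702235 (plus strand). Capitals mark every match on either strand to 5 motifs.
ID1: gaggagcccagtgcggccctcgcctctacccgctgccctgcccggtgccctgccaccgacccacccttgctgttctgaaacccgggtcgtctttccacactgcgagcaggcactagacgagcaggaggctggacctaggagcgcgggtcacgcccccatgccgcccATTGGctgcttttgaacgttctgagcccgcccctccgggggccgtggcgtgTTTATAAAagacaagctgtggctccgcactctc
ID4: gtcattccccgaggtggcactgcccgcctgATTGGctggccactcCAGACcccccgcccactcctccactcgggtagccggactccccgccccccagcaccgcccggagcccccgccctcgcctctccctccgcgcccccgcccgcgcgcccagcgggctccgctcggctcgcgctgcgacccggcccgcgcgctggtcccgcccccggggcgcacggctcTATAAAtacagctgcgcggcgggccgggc
SMAD6: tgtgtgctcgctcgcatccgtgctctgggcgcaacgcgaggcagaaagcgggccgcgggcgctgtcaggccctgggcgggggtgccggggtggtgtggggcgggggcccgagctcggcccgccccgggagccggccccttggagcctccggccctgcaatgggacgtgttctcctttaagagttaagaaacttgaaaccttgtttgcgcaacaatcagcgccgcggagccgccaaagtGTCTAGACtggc

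The motifs were the palindromic SMAD-binding element GTCTAGAC, the GC-rich element GGCGCC that SMAD1 and SMAD5 are known to bind, and CAGAC, a single SMAD box, which the palindrome does not contain. To these were added TATAAA, the core promoter element, and the CCAAT box, known to bind the trimeric factor NF-Y. The palindrome stood 12 bases before the start of SMAD6 and was found in 0.182% of 35116 RefSeq windows of the same length. The single SMAD box, found in 38.0% of all windows, stood in ID3, ID4 and BAMBI and in 2 of 3 windows each of BMP4 and SMAD7. The GC-rich element, found in 16.4% of all windows, stood 3 times in BAMBI and once in 1 window of BMP4. ID1 and ID2 held none of these SMAD-type motifs in these 250 bases. ID1 held a pair of overlapping core promoter matches on opposite strands and 1 CCAAT box, ID4 held 1 of each, and ID2 held 3 CCAAT boxes. Outside the ID genes, 1 core promoter match stood in 1 SMAD7 window and 1 CCAAT box in BAMBI. The core promoter motif stood in 10.7% and the CCAAT box in 32.0% of all windows. Such matches describe letters and not binding. RefSeq windows were found for 8 members, and BMP2 and BMP7 are named only. Several windows lie partly or wholly inside exons of the GENCODE 29 annotation, whose transcripts can start before the RefSeq start, so their motifs are not all upstream of the gene. All windows of ID2, ID3, BMP4 and SMAD7 lie inside the gene as annotated there. The bases before the annotated start of these genes were therefore not searched. Exons cover all 250 bases of the ID3 window and of 1 SMAD7 window, 202 bases of ID2, 179 of BAMBI, and 60 and 64 of 2 BMP4 windows. They cover 6 bases of ID1, 8 of SMAD6 and 0 of ID4, of 1 BMP4 window and of the other 2 SMAD7 windows. The exon bases of SMAD6 are the last of its window and take in part of its palindrome.

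On GRCh38 in GENCODE 29, ID1 lies at chr20:31605283-31606515, BMP2 at chr20:6767664-6780280 and BMP7 at chr20:57168748-57266629, so 3 members share chromosome 20. ID2 lies at chr2:8678845-8684453, ID3 at chr1:23557918-23559794, ID4 at chr6:19837386-19840684, BMP4 at chr14:53949736-53958761, SMAD6 at chr15:66702228-66782848, SMAD7 at chr18:48919853-48952052 and BAMBI at chr10:28677342-28682939. Values are per gene, with exons not separated. Antisense genes overlap ID2 (ID2-AS1), ID4 (AL022068.1) and BMP7 (BMP7-AS1), and since no source used here states whether strand was used, reads of the pairs cannot be told apart. AC013564.1, annotated as sense intronic, overlaps SMAD6 on the same strand.

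Levels are in TPM, a measure of transcript abundance, which are scaled to gene length and to the same total in each library and keep no record of depth, so no counting interval can be given. The listed markers of basal tumor cells were high in all 8 tumors, with KRT5 from 2817 to 6488 TPM and EPCAM from 91.0 to 181.5 TPM, while PGR was listed at 0 in 7 tumors and at 0.02 TPM in Vehicle 4. ERBB2 was at 77.6 to 130 TPM and ESR1 at 3.37 to 6.00 TPM. Of the host and stromal cell types that whole tumors can hold, the 8 endothelial markers summed to between 4.23 and 8.10 TPM. CDH5 was at most 0.18 TPM and EMCN was listed at 0 in 4 tumors. The highest on average were KDR, at 1.83 TPM in Vehicle and 3.94 TPM in NMN tumors, and VWF, at 1.64 and 1.16 TPM. These markers did not move together, since KDR was higher with NMN while VWF and TEK (0.44 and 0.14 TPM) were lower. The 8 fibroblast markers summed to 186 to 282 TPM in Vehicle and 116 to 230 TPM in NMN tumors, with DCN listed at 0 in 7 tumors. This sum came almost wholly from the collagen genes COL1A1, COL1A2 and COL3A1, with means of 117, 54.7 and 25.0 TPM over all tumors. PDGFRA was at most 0.71 TPM, PDGFRB 0.65 TPM, LUM 0.05 TPM and THY1 0.03 TPM. The 6 myeloid markers measured summed to 52.3 to 91.6 TPM and the 6 adipocyte markers to 10.9 to 217 TPM. The width of the adipocyte range came mostly from FABP4, at 3.19 to 212 TPM. CIDEC was at 3.02 to 5.90 TPM, LEP at most 0.17 TPM and ADIPOQ at most 0.03 TPM. In whole tissue, fewer cells of a type and less RNA per cell cannot be told apart.

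NMN 4 and Vehicle 4 stood apart from their groups in some of the marker sums. The 12 genes of the hypoxia list summed to 4668, 6438 and 6525 TPM in NMN 1 to 3 but to 2770 TPM in NMN 4, against 2282 to 3476 TPM in the Vehicle tumors. The 15 skeletal muscle markers summed to 34.3 to 56.0 TPM in NMN 1 to 3 and to 700.5 TPM in NMN 4. In Vehicle 1 to 4 they summed to 935, 736, 2822 and 473 TPM, so Vehicle 3 was far above the others here. Vehicle 4 had the highest sum of the 8 basal tumor cell markers, 18875 TPM against 8308 to 11523 TPM in the other 7. This sum is carried by the keratins KRT5, KRT6B, KRT14 and KRT17, each highest in Vehicle 4, whereas EPCAM of the same list was lowest there. Vehicle 4 also had the lowest median correlation with the other libraries, 0.967 (Pearson, across tested genes). The next lowest was Vehicle 3 at 0.973, and NMN 4 had the highest, 0.980. The results of the members are therefore also given without Vehicle 4 and without NMN 4.

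The order of the members by mean level over the 8 tumors was ID1 (643 TPM), ID3 (107 TPM), ID2 (67.8 TPM), BMP7 (49.5 TPM), BAMBI (36.5 TPM), ID4 (16.4 TPM), BMP4 (9.18 TPM), BMP2 (6.26 TPM), SMAD7 (3.33 TPM) and SMAD6 (2.85 TPM). ID1 ranked 216 of the 18164 genes by this mean. Only the step from ID1 to ID3 separated neighbours fully, with every ID1 value above every ID3 value. The ranges of all other neighbours overlapped, although within a tumor ID3 exceeded ID2 in 7 of 8, BAMBI exceeded ID4 in 8 of 8 and SMAD7 exceeded SMAD6 in only 5 of 8.

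**Figure D1:**
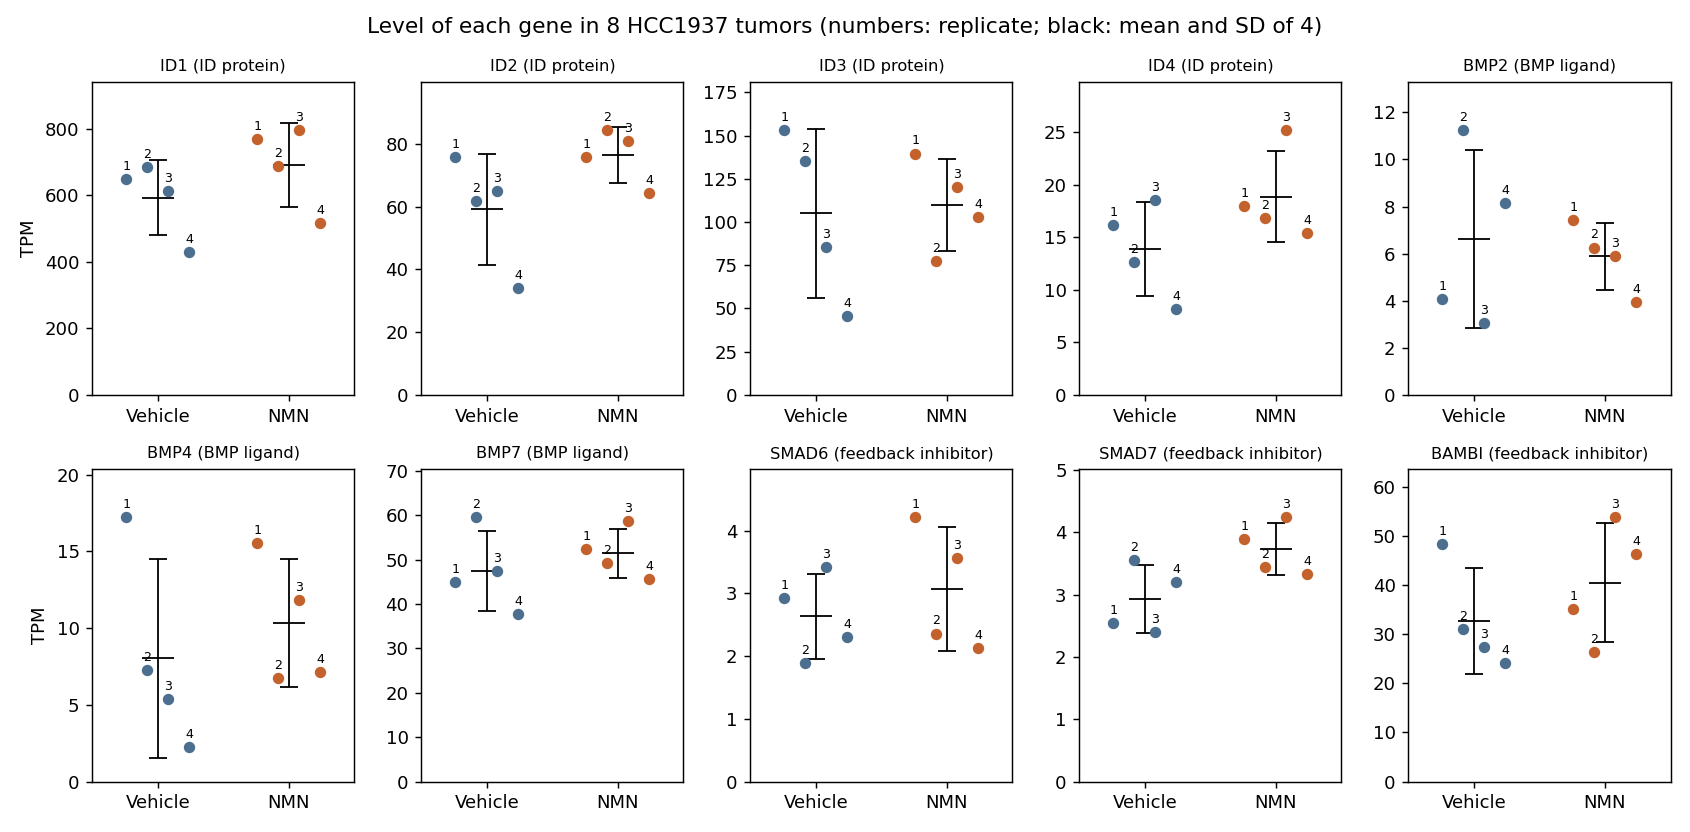
Each panel plots 1 gene, with its level in TPM on a linear axis from 0 and 1 point per tumor, numbered by replicate; the black line and bar are the mean and SD of 4 tumors. Groups overlap in all 10 panels, and Vehicle 4 is the lowest point for ID1, ID2, ID3, ID4, BMP4, BMP7 and BAMBI.

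ID1, the classical direct target of BMP receptors, was at 648, 684, 612 and 430 TPM in Vehicle 1 to 4 and at 768, 688, 796 and 516 TPM in NMN 1 to 4. NMN 1, 2 and 3 lay above every Vehicle tumor, while NMN 4 lay below Vehicle 1, 2 and 3. The group means were 593 ± 113 TPM and 692 ± 126 TPM (SD, n = 4 each), and the log2 fold change, NMN over Vehicle on the scale of log2(TPM + 1), was 0.22 ± 0.17 (SE; 95% interval -0.14 to 0.59), with a limma adjusted p of 0.903.

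ID2, which also restrains differentiation of mammary cells, was at 75.7, 61.8, 65.1 and 34.1 TPM in Vehicle 1 to 4 and at 75.9, 84.4, 81.0 and 64.2 TPM in NMN 1 to 4. NMN 1, 2 and 3 again exceeded all Vehicle tumors, NMN 1 by a narrow margin over Vehicle 1. Its log2 fold change of 0.41 ± 0.21 (interval -0.04 to 0.86) had the smallest adjusted p of the 10 members, 0.773 in limma.

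ID3, coexpressed with ID1 in many tissues, was at 153, 135, 85.6 and 45.9 TPM in Vehicle 1 to 4 and at 140, 77.2, 120 and 103 TPM in NMN 1 to 4. The Vehicle tumors held both the highest and the lowest value, and all NMN values lay within the Vehicle range. The log2 fold change was 0.17 ± 0.32 (interval -0.53 to 0.88), and without Vehicle 4 it was -0.17.

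ID4, a marker of mammary stem cells and of basal-like breast cancers, was at 16.1, 12.6, 18.5 and 8.22 TPM in Vehicle 1 to 4 and at 18.02, 16.8, 25.2 and 15.4 TPM in NMN 1 to 4. NMN 3 alone lay above all Vehicle tumors. The log2 fold change was 0.45 ± 0.23 (interval -0.06 to 0.95; adjusted p = 0.795, limma), the largest estimate among the ID genes.

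Summed, the 4 ID genes reached 893, 894, 781 and 518 TPM in Vehicle 1 to 4 and 1002, 866, 1023 and 698 TPM in NMN 1 to 4. The tumors numbered 4 were the lowest of their groups. ID1 made up 72.6% to 83.0% of this sum in the Vehicle and 73.9% to 79.4% in the NMN tumors, and its share was highest in Vehicle 4, where ID3 had its smallest share, 8.86%. The fall in Vehicle 4 was thus not equal among the family: on the log2(TPM + 1) scale ID1 stood 0.55 below its 8-tumor mean there, ID4 0.86, ID2 0.93 and ID3 1.12 below theirs.

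Of the ligands, BMP7, a BMP of the 60A subgroup made by many epithelia, was the most abundant. It was at 44.9, 59.7, 47.4 and 37.8 TPM in Vehicle 1 to 4 and at 52.4, 49.2, 58.6 and 45.7 TPM in NMN 1 to 4. Its coefficient of variation over the 8 tumors, 14.7%, was the smallest of the members, and it made up 67.8% to 84.9% of the summed TPM of the 3 ligands in every tumor. The log2 fold change was 0.13 ± 0.14 (interval -0.18 to 0.43), or 0.03 without Vehicle 4, 0.06 without NMN 3 and 0.24 without Vehicle 2.

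BMP4 varied most, with a coefficient of variation of 56.5%. It was at 17.3, 7.29, 5.39 and 2.23 TPM in Vehicle 1 to 4 and at 15.5, 6.78, 11.8 and 7.16 TPM in NMN 1 to 4, so both groups held tumors above 15 TPM and tumors near 7 TPM. The log2 fold change was 0.53 ± 0.44 (interval -0.43 to 1.48), and it ran from 0.12 without Vehicle 4 to 0.95 without Vehicle 1. The largest estimate of the 10 genes was thus also the least certain.

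BMP2, the close paralog of BMP4, was at 4.07, 11.3, 3.05 and 8.15 TPM in Vehicle 1 to 4 and at 7.42, 6.26, 5.88 and 3.96 TPM in NMN 1 to 4. All NMN values lay within the Vehicle range. It was the 1 member with the lower average in the NMN group, at a log2 fold change of -0.04 ± 0.32 (interval -0.74 to 0.66) that was 0.10 without Vehicle 4 and 0.11 without NMN 4. Vehicle 4, lowest in BMP4 and BMP7, had the second highest Vehicle value of BMP2.

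Of the feedback inhibitors, BAMBI was at 48.2, 31.0, 27.4 and 24.2 TPM in Vehicle 1 to 4 and at 35.1, 26.4, 53.9 and 46.2 TPM in NMN 1 to 4. Here NMN 4 was among the high tumors, with NMN 3 and Vehicle 1. The log2 fold change was 0.30 ± 0.24 (interval -0.23 to 0.82), or 0.17 without Vehicle 4 and 0.22 without NMN 4. Leaving out NMN 3 gave 0.15, NMN 2 gave 0.48 and Vehicle 1 gave 0.50.

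SMAD7, which inhibits both TGF-β and BMP receptors, was at 2.55, 3.56, 2.40 and 3.20 TPM in Vehicle 1 to 4 and at 3.90, 3.45, 4.25 and 3.33 TPM in NMN 1 to 4. NMN 1 and NMN 3 lay above all Vehicle tumors, and Vehicle 2 lay above NMN 2 and NMN 4. The means were 2.93 ± 0.546 TPM and 3.73 ± 0.423 TPM (SD, n = 4 each), and the log2 fold change was 0.28 ± 0.16 (interval -0.08 to 0.63), or 0.31 without Vehicle 4 and 0.32 without NMN 4. SMAD7 had the smallest exact permutation p of the members, 0.0857, where 4 tumors against 4 allow 0.0286, and with limma the adjusted p was 0.836.

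SMAD6, the inhibitor most selective for BMP signals, was at 2.92, 1.89, 3.42 and 2.30 TPM in Vehicle 1 to 4 and at 4.22, 2.36, 3.56 and 2.13 TPM in NMN 1 to 4. Within each group a pair of tumors was near or above 3 TPM and a pair lay at or below 2.36 TPM. The log2 fold change was 0.15 ± 0.21 (interval -0.31 to 0.61), and it was 0.11 without Vehicle 4, 0.27 without NMN 4 and 0.02 without NMN 1. At such levels the pseudocount of 1 TPM makes fold changes of SMAD6 and SMAD7 smaller than those of the TPM themselves.

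**Figure D2:**
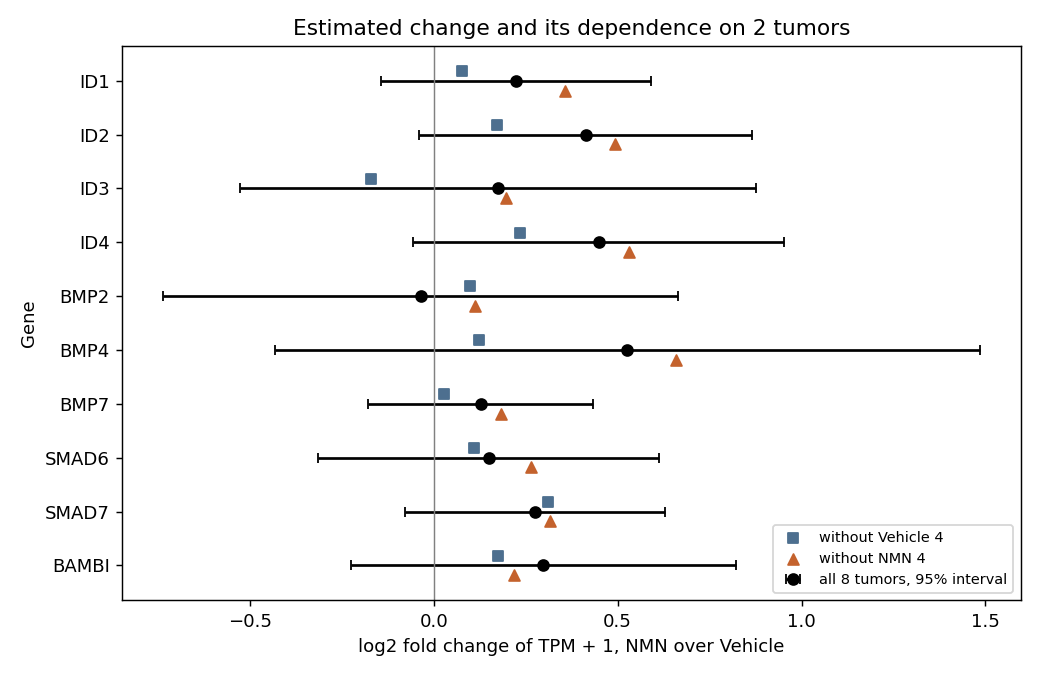
The horizontal axis is the log2 fold change of TPM + 1, NMN over Vehicle, with 1 row per gene. Black points and bars are the estimate and 95% interval from all 8 tumors, squares the estimate without Vehicle 4 and triangles that without NMN 4; every black bar crosses 0, and for ID3 the square lies at -0.17 against 0.17 for the black point.

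Counted together, 0 of the 10 members passed limma's test at an adjusted p under 0.05, where 0% of all 13358 tested genes did (0 genes). At an unadjusted limma p under 0.05 stood 0 of the members and 927 of all 13358 tested genes. Leaving out single tumors moved both counts. They were 3 members (ID2, BMP4 and BAMBI) and 1201 genes without Vehicle 1. Without Vehicle 3 they were 1 member (ID4) and 1024 genes, and without NMN 4 they were 1 member (ID1) and 1276 genes. In 0 members were the groups free of overlap, against 3.05% of all tested genes. The mean log2 level, by which genes are counted as higher or lower here and in the lists below, was higher with NMN in 9 of 10 members and in 51.0% of all tested genes, and the median log2 fold changes were 0.25 and 0.00. The members are correlated and were chosen with earlier results of these data known, so these counts describe them only. The direction of all 10 was the same after median-of-ratios scaling and after quantile normalization. Exact two-sided permutation p-values of the 10 single genes ran from 0.0857 to 0.886.

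Without Vehicle 4, 9 of 10 log2 fold changes were above 0, but those of ID1, ID2 and ID4 were 0.08, 0.17 and 0.24 in place of 0.22, 0.41 and 0.45. Without NMN 4 they were 0.36, 0.49 and 0.53, and all 10 members were above 0. ID2 reached 0.55 without Vehicle 1 and ID4 reached 0.60 without Vehicle 3. The smallest limma adjusted p of a member was 0.980 without Vehicle 4 and 0.494 without NMN 4. With both tumors left out it was 0.529, and ID3 was at -0.15.

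**Figure D3:**
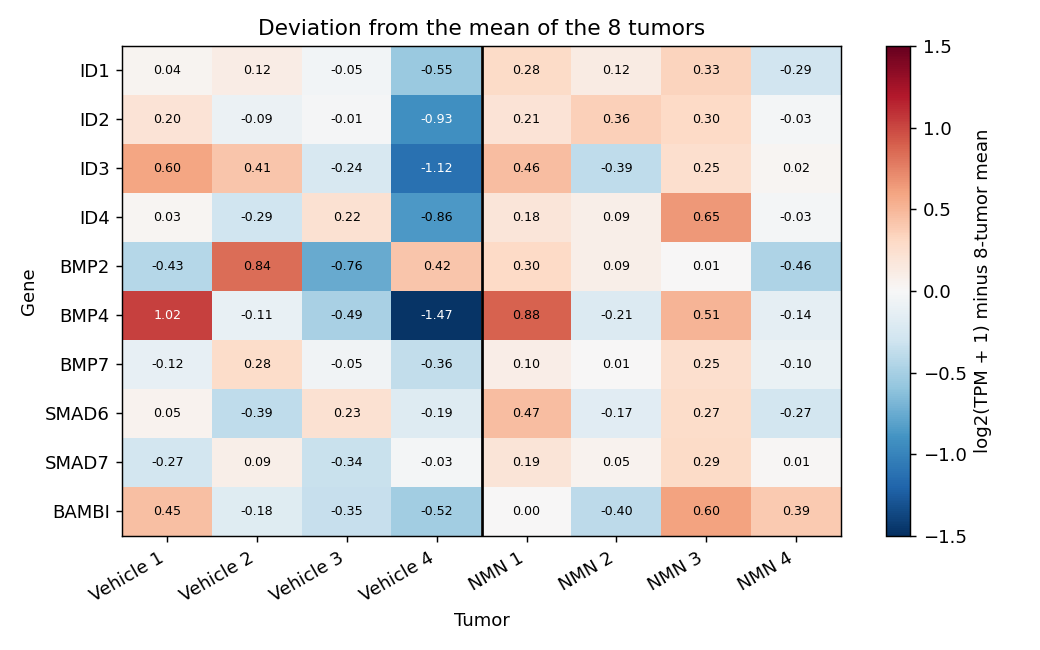
Rows are genes, columns tumors, and each cell gives log2(TPM + 1) minus the gene's mean over the 8 tumors, blue below and red above. The column of Vehicle 4 is below 0 for every gene except BMP2 (0.42), reaching -1.47 for BMP4, and the column of NMN 3 is above 0 for all 10 genes.

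Vehicle 4 was the lowest of the 8 tumors in 7 of 10 members and in 20.4% of all tested genes, and this number of members was also 7 after median-of-ratios scaling and after quantile normalization. NMN 3 was the highest tumor in ID1, ID4, SMAD7 and BAMBI, and in 12.1% of all tested genes. NMN 4 was the highest or lowest in 0 members, and in 24.5% (highest) and 2.77% (lowest) of all tested genes. The high keratin levels of Vehicle 4 are given above, and their part in the low member values was not tested.

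Of the 45 pairs among the members, 39 had a Pearson r above 0 over the 8 tumors, with a median of 0.53, against 62.9% of all pairs of tested genes and a median of 0.16. Without Vehicle 4 the medians were 0.29 and 0.20. These correlations describe the same 8 libraries, which share their composition and scaling. ID3 and BMP4 were the closest pair (r = 0.91, Spearman's rho = 0.95), and this was 0.80 without Vehicle 4. ID1 and ID2 stood at 0.85 (0.61 without Vehicle 4), whereas ID2 and ID3 stood at 0.71 and at -0.08 without it. BMP2 had a negative r with ID2, ID3, ID4, BMP4, SMAD6 and BAMBI, and its closest member was SMAD7 (0.62), but without Vehicle 4 it was BMP7 (0.80, against 0.68 for SMAD7). After BMP4, ID3 was closest to ID1 (0.73), ID2 and BAMBI (0.68), while ID1 was closest to ID2 and BMP7 (both 0.85).

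For each member, the 3 tested genes with the highest Pearson r over the 8 tumors were taken as those most like it, a choice of the highest among all 13358 that is a description alone. For ID1 they were ARPC4-TTLL3, a readthrough gene whose reads overlap those of its neighbours (0.97), NPW, a neuropeptide gene (0.95), and TMEM86B (0.95). For ID2 they were ARRDC3, an arrestin-domain gene (0.99), BTNL9 (0.98) and AMT, an enzyme of glycine cleavage (0.98). ARRDC3 was still at 0.91 without Vehicle 4 and NMN 2, the tumors farthest from the median of ID2. For ID1 these tumors were Vehicle 4 and NMN 4. Without them ARPC4-TTLL3 was at 0.92, NPW at 0.78 and TMEM86B at 0.80. For ID3 they were AGPAT4 (0.98), COX6A1, a subunit of cytochrome oxidase (0.96), and the heat shock gene HSPA1A (0.96), which shares reads with its near-identical copy. For ID4, FAM193B (0.99) and LMTK3 (0.98) were among them.

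The ligand BMP2 was most like S100A9, a calcium-binding protein of inflamed epithelium (0.96), CDKN1A, the cell cycle inhibitor p21 (0.96), and SPINK5, a protease inhibitor of cornifying epithelium (0.95). BMP4 was most like LOC107986677, RP9 and GRAMD1C (0.97 to 0.98), and BMP7 most like NEK3, the phosphatase gene DUSP1 and the ribosomal gene RPL35A (0.91 to 0.98). SMAD6 was most like LRP4, ACBD4 and LEAP2 (0.90 to 0.96). SMAD7 was most like ZC3H12A, an RNase that limits inflammation, the tetraspanin CD81 and MPIG6B (0.94 to 0.96). BAMBI was most like RIC8B, ZFYVE1 and PLAAT2 (0.96 to 0.98). None of the members was among the 3 genes most like another member.

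The rest of the pathway was described by lists of its other genes. Of 12 other BMP and growth differentiation factor ligands 4 were tested and 0 passed, 3 of them higher with NMN, with a median log2 fold change of 0.14 that ran from 0.05 (without Vehicle 2) to 0.27 (without Vehicle 4) when single tumors were left out; without Vehicle 1, 2 of the 4 were higher. BMP6 was at 4.37 TPM in Vehicle and 4.30 TPM in NMN tumors, GDF11 at 1.87 and 2.17 TPM, and BMP8B at 3.44 and 4.23 TPM, the last uncertain because BMP8A is nearly identical. All other ligands listed apart from GDF7 had means under 1 TPM, and GDF2 was not analysed here. BMP7 was therefore the BMP ligand gene with the highest level among those measured.

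Of 11 receptors and coreceptors 9 were tested, 0 passed, and 6 were higher with NMN. Their median log2 fold change was 0.04, and it was -0.02 without Vehicle 2 and 0.17 without Vehicle 1. The type I receptor genes ACVR1 and BMPR1A and the type II receptor genes BMPR2 and ACVR2A were all present, at 16.3, 6.64, 11.8 and 11.5 TPM in Vehicle tumors. BMPR1A was at 7.35, 5.82, 7.54 and 5.86 TPM in Vehicle 1 to 4 and at 8.28, 7.63, 7.72 and 8.81 TPM in NMN 1 to 4, without overlap, for a log2 fold change of 0.26 ± 0.14 (limma adjusted p = 0.822). BMPR1B, its paralog, was at 2.32 ± 0.582 TPM in Vehicle and 1.25 ± 0.426 TPM in NMN tumors, a log2 fold change of -0.57 ± 0.20 (limma adjusted p = 0.519). The coreceptor gene RGMA was at 8.29 ± 1.92 TPM and 12.8 ± 3.90 TPM (0.55 ± 0.22; limma adjusted p = 0.629). ACVRL1, the type I receptor typical of endothelium, was at 0.203 and 0.145 TPM, under the filter.

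All 8 SMAD transducers and SMAD ubiquitin ligases were tested, and 0 passed. SMAD1 was the most abundant BMP-responsive SMAD, at 42.1 TPM in Vehicle and 46.3 TPM in NMN tumors, with SMAD5 at 14.7 and 15.0 TPM and SMAD9 near 1 TPM in both. SMAD2, SMAD3 and SMURF2 had the smallest p-values of the list, with log2 fold changes of 0.13 ± 0.15, -0.13 ± 0.14 and 0.14 ± 0.16. The median of the list was 0.06, and leaving out NMN 4 gave -0.04 and Vehicle 1 gave 0.13.

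Of 15 secreted antagonists, which bind BMPs or activins outside the cell, 7 were tested, 0 passed, and 3 were higher with NMN. Their median was -0.00, and it ran from -0.10 (without Vehicle 2) to 0.06 (without Vehicle 3). The most abundant were NBL1 (98.1 TPM in Vehicle and 88.3 TPM in NMN tumors), SOSTDC1 (62.7 and 69.3 TPM), FST (24.7 and 18.2 TPM) and FSTL1 (24.3 and 28.2 TPM). The classical antagonists NOG and GREM1 lay under the filter, with NOG at 1.03 and 0.555 TPM and GREM1 at 0.0250 TPM in both groups. CHRD, chordin, also under the filter, was at 0.37, 0.56, 0.60 and 0.22 TPM in Vehicle 1 to 4 and at 2.83, 1.45, 1.42 and 0.70 TPM in NMN 1 to 4. It was named after its values were seen, for its lack of overlap between groups.

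Among the 10 other target genes of BMP signals, 8 were tested, 0 passed, and 5 were higher with NMN. Their median was 0.28, and 0.13 without NMN 1. DLX5, a homeobox gene of bone and ectoderm, was at 1.48, 0.56, 0.81 and 1.25 TPM in Vehicle 1 to 4 and at 10.9, 3.26, 3.25 and 2.02 TPM in NMN 1 to 4. The groups did not overlap, NMN 1 was far above the others, and the log2 fold change was 1.34 ± 0.36 (limma adjusted p = 0.341). SOX9, a transcription factor of progenitor cells, was at 77.2, 57.8, 66.5 and 55.1 TPM in Vehicle 1 to 4 and at 96.4, 70.5, 128 and 116 TPM in NMN 1 to 4, where only NMN 2 fell within the Vehicle range (0.65 ± 0.18; limma adjusted p = 0.348). Of the other targets, HEY1, MSX1 and RUNX2 each had a log2 fold change of -0.01, MSX2 one of 0.13, JUNB one of 0.44 ± 0.28 and DLX3 one of 0.45 ± 0.25.

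**Figure D4:**
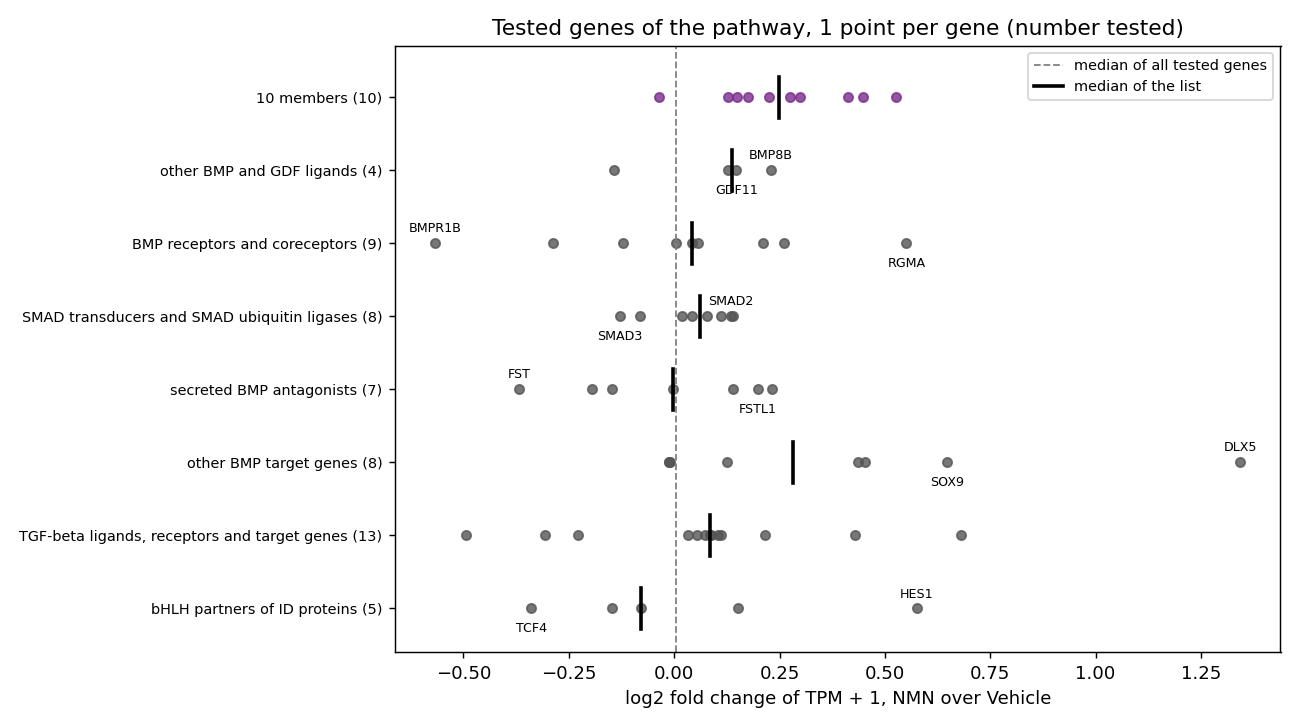
Each point is a tested gene, placed by its log2 fold change of TPM + 1, NMN over Vehicle, and rows are the 10 members and 7 lists of pathway genes with the number tested. Black ticks are list medians, from -0.08 for the bHLH partners to 0.28 for other BMP targets, beside 0.25 for the members, and the dashed line is the median of all tested genes; in each list apart from the TGF-β list, the 2 genes with the smallest p are named.

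SMAD7 also answers to TGF-β, the sister pathway that signals through SMAD2 and SMAD3. All 13 of its ligands, receptors and targets listed were tested and 0 passed, 10 of them higher with NMN, with a median of 0.09 that ran from -0.01 (without Vehicle 2) to 0.19 (without NMN 2). The ligand gene TGFB3 and the receptor gene TGFBR1 had log2 fold changes of -0.49 ± 0.24 and -0.31 ± 0.16. SKIL and PMEPA1, feedback genes of this pathway, had 0.09 ± 0.17 and 0.11 ± 0.22.

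Of the 12 helix-loop-helix partners of ID proteins 5 were tested, 0 passed, and 2 were higher with NMN. Their median was -0.08. It ran from -0.14 (without Vehicle 2) to 0.00 (without NMN 2) with single tumors left out, and was 0.15 over the 3 genes left by a filter at 5 TPM. The E protein genes TCF3 and TCF12 were at 56.0 and 18.5 TPM in Vehicle and 53.1 and 20.7 TPM in NMN tumors, so the RNA of ID1 exceeded that of both in each group. The third E protein gene, TCF4, was at 1.59 and 1.04 TPM (-0.34 ± 0.19; limma adjusted p = 0.815). HES1, a repressor driven by Notch, was at 264, 232, 107 and 97.9 TPM in Vehicle 1 to 4 and at 204, 265, 266 and 224 TPM in NMN 1 to 4, with Vehicle 4 again the lowest (0.58 ± 0.29; limma adjusted p = 0.766). TCF12, with the third smallest p of the list after HES1 and TCF4, had 0.15 ± 0.18. The muscle factor MYOD1 was at 0.0425 and 0.0450 TPM, and MYF5 was not analysed here. TWIST1, under the filter and chosen after its values were seen, was at 0.71 to 1.12 TPM in Vehicle and 0.18 to 0.49 TPM in NMN tumors.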

How the data were processed

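RNA of 8 whole tumors (4 NMN, 4 Vehicle) was analysed from the TPM deposited by the authors in 1 column per tumor. Per the submitters' processing notes, the build was GRCh38.p13 and the tools were RSEM 1.2.8, HISAT2 2.1.0 and Bowtie2 2.2.5, without roles. No source used here says how mouse reads were handled, so mouse transcripts may be part of any value. The primary chromosomes of GRCh38.p13 and GRCh38.p14 share coordinates.

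Genes with at least 1 TPM in at least 4 libraries were tested (13358 genes; all 10 members) on log2(TPM + 1) by limma 3.58.1 (R 4.3.3; trended variance, a single group term, two-sided) with Benjamini-Hochberg adjustment over all tested genes at 0.05. The model was tested on simulated data. Named were the members, up to 3 genes per list with the smallest p and any that passed, the 3 genes most like each member, and markers; other list genes given were chosen after their values were seen, and a few genes that the rule names are not reported here. Members and lists were chosen with earlier results of these data known. Alternatives were a filter raised to 5 TPM or dropped, pseudocounts of 5 and 0.1, quantile normalization, median-of-ratios scaling, library weights, the replicate block and single tumors left out; leaving out both tumors numbered 4 was added after seeing the data.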

Additional observations from a re-analysis of the deposited data

How the results depend on the processing

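In all 17 other settings 0 of the members passed, and the lowest limma adjusted p of a member was 0.391 (SMAD7, library weights). Of the 168 log2 fold changes of members under these settings, 161 kept their direction and 7 turned it, all in BMP2 and ID3. BMP2 was at 0.252 with library weights and 0.247 without both tumors numbered 4, and ran from -0.294 (without Vehicle 3) to 0.239 (without Vehicle 2) with single tumors left out. ID3 was at -0.149 without both tumors numbered 4 and ran from -0.17 (without Vehicle 4) to 0.402 (without Vehicle 1). Over all genes, 54 passed with library weights, 128 without both tumors numbered 4, and from 0 to 54 (without NMN 4) with single tumors left out; the cause was not tested. With the replicate block 2 genes passed. There the unadjusted limma p was under 0.05 for 3 members, ID1, ID2 and ID4 (adjusted p = 0.592, 0.476 and 0.421, limma). This also held for 1094 of all 13358 tested genes. With library weights it held for 1 of the 10 members, SMAD7 (0.0321, limma), and for 1492 of the 13358 genes. With single tumors left out it held for up to 3 members (without Vehicle 1, where it held for 1201 genes). The deviations from group means of tumors of the same number correlated from -0.12 to 0.03 over tested genes. The labels used here do not say whether such tumors share more than the number. A correlation over all genes cannot decide this. The filter at 5 TPM removed SMAD6 and SMAD7. TPM hold no depth, so the counting error of SMAD6 and SMAD7 at about 3 TPM is unknown.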
